A study of Homo sapiens with 15 samples.

Results

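The genes described here are 9 genes of MHC class I antigen presentation: HLA-B, HLA-C, HLA-E, B2M, TAP1, TAP2, PSMB8, PSMB9 and NLRC5. They were chosen by name, and all 9 were found among the 16604 genes measured. RNA was measured in 15 samples of OVCAR4, an established cell line from a high-grade serous tumour of the ovary, and of 4 lines derived from it, with 3 biological replicates of each of the 5 lines. The starting line, Ovcar4Parental, is labelled sensitive to carboplatin and cisplatin. Ov4Cis was selected in rising cisplatin and is labelled cisplatin resistant. Ov4Carbo was selected in rising carboplatin and is labelled carboplatin resistant. Ov4Carbo4 and Ov4Carbo7 each came from a single cell of Ov4Carbo, are labelled carboplatin resistant, and stand for 1 clone each. All lines were grown in serum-containing DMEM, and no immune cells or cytokines are named in the labels.

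MHC class I molecules show short peptides from inside the cell to CD8+ T cells. Proteins are cut by the proteasome, in which PSMB8 and PSMB9 replace standard catalytic subunits after interferon signalling. TAP1 and TAP2 pump the peptides into the endoplasmic reticulum, where a heavy chain such as HLA-B, HLA-C or HLA-E joins beta-2-microglobulin (B2M). NLRC5 is a transactivator of these genes and reaches their promoters through DNA-bound RFX, CREB/ATF and NF-Y factors. Loss of class I genes is a known route of tumour escape from T cells.

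Ov4Carbo7 had the highest mean for 9 of the 9 genes. Its lead over the next line was only 0.01 log2 units for TAP2 and PSMB9, 0.04 for TAP1 and 0.10 for HLA-E. The share of all genes with their highest mean in this line was not computed. The clearest difference of Ov4Carbo7 was in NLRC5, at 2.41-fold the parental level. HLA-B and PSMB8 were also called higher than in the parental line. With a term for the number series of the sample titles, which separates these lines, 0 of the 9 were called higher than in the parental line (16.6% of all genes called). Ov4Carbo4, the other clone, had no gene of the 9 called against the parental line (15.1% of all genes called). With that term, however, 6 of the 9 were called lower (17.9% of all genes called). That term is estimated only from Ov4Carbo replicate 1 against the other replicates of its line, so it rests on a single sample. Ov4Cis had the lowest mean for 6 of the 9, though by only 0.02 for PSMB9. Its gap to Ov4Carbo7 was called for 6 of the 9 (14.7% of all genes), but for 0 with that term (15.9%). In Ov4Carbo, replicate 1 exceeded both other replicates for 9 of 9 genes, so that the mean of that line hides a wide spread. Values are log2 RPKM (read counts corrected for gene length and library size, where 1 unit is a doubling). Whether reads of different genes were counted equally well was not tested, so comparisons between genes are less certain than comparisons between lines. "Called" means an adjusted p under 0.05 in limma, Benjamini-Hochberg over all genes of a contrast, and a log2 fold change of at least 1 in size. The samples are bulk RNA, so a higher level in every cell and a larger share of cells with a high level cannot be told apart.

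The deposited values had been normalized to a common distribution. The median lay at 2.77 in each sample and 13643 to 13712 genes stood above log2 RPKM 0. Such closeness follows from the normalization and does not test whether the libraries were alike. The sequencing depth of a value is unknown. PAX8, a marker of this tumour type, had means of 5.85 to 6.74 in the 5 lines. WT1, another such marker, was low throughout, at means of -5.07 to -1.52. EPCAM, an epithelial adhesion protein, fell from 5.98 in the parental line to 3.01 in Ov4Carbo7 and 1.17 in Ov4Cis, and KRT7, a keratin, from 8.28 to -0.57 in Ov4Cis. Of 12 leukocyte markers, 2 were in the table, with a summed RPKM of 0.670 to 1.96 over all samples. The CD14 mean was 0.58 in Ov4Carbo7 against -0.98 in the parental line, and its part in the results was not tested. Stromal markers (5 of 6 in the table) summed to between 4.72 and 14.7 RPKM. Endothelial markers (3 of 5) summed to at most 10.3 RPKM, except in Ov4Carbo4 and Ov4Cis, where the sum lay between 20.7 and 40.9. The larger sums rest mainly on 1 gene, CDH5, as the other 2 had means below log2 RPKM 0 in every line. CDH5 lay at 2.31 to 2.58 in the parental samples, 4.31 to 4.59 in Ov4Carbo4 and 4.98 to 5.29 in Ov4Cis. Ov4Carbo replicate 1 stood apart from its line, and counts that rest on Ov4Carbo are given without it where they changed. That sample, all Ov4Carbo4 and all Ov4Carbo7 samples (7 in all) carry titles of one number series, and the other 8 samples carry another. Whether the numbers mark a batch is not stated. Ov4Carbo7 against Ov4Carbo4 and Ov4Cis against the parental line are comparisons within a series, whereas Ov4Carbo7 against the parental line is not.

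The class I promoters are shown as a description of the genes. All 9 had their highest mean in the same line, but by only 0.01 log2 units for TAP2 and PSMB9 and 0.04 for TAP1. Whether promoter sequence bears on these levels was not tested. RefSeq promoters (GRCh38.p14) were matched by symbol for 7 of the 9 genes, with 9 entries of 300 bases. Printed are 170 bases, from 160 before to 10 after the start. In HLA-B and HLA-C, capitals mark each CCAAT box (CCAAT or its reverse complement), to which NF-Y factors bind, and the CRE core (TGACG), which CREB/ATF factors recognise.
HLA-B, chr6:31357170-31357339, - strand: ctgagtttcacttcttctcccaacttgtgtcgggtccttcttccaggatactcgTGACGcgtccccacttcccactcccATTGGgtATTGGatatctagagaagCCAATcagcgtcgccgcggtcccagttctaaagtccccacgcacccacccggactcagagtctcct
HLA-C, chr6:31272083-31272252, - strand: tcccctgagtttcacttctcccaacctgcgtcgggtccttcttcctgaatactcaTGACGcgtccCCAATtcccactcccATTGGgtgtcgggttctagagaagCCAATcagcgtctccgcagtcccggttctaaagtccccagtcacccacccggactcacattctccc
These 2 windows were identical at 149 aligned positions, 87.6% of their length. In B2M, TAP1, TAP2 and PSMB8, capitals mark matches to GAAANNGAAA on either strand, a form of the element that interferon-regulated factors bind. In B2M and TAP1, 2 such matches overlap.
B2M, chr15:44711357-44711526, + strand: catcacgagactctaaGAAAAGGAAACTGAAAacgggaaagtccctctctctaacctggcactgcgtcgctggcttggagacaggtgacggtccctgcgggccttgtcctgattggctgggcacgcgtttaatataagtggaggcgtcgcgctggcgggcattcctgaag
TAP1, chr6:32853695-32853864, - strand: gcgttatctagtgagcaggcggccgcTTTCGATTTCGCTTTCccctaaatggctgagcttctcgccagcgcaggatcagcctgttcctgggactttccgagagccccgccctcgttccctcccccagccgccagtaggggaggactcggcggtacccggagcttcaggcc
TAP2, chr6:32838730-32838899, - strand: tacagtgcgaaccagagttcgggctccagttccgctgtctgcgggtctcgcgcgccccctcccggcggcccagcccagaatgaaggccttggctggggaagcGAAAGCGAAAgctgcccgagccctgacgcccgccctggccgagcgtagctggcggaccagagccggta
PSMB8, chr6:32844038-32844207, - strand: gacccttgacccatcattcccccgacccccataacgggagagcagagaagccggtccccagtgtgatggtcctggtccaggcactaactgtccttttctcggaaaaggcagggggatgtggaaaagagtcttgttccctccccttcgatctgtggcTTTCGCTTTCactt
The matches lay at positions -144 to -129 of B2M and -134 to -119 of TAP1, counted from the start. The TAP2 match lay at -58 to -49, and the PSMB8 match spanned the start of its second entry. GAAANNGAAA was found in 4 of the 9 entries, against 3.57% of 35116 promoters of that length. CCAAT was found in 5 of 9 (34.6% of all promoters), TGACG in 6 of 9 (24.6%) and TTCNNNGAA, a STAT-type element, in 2 of 9 (7.66%). TAP1 and PSMB9 are transcribed in opposite directions from starts 488 bases apart, so these neighbours share promoter sequence. A match is a description of letters, not evidence of binding.

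NLRC5 was measured at 1.76, 2.23 and 1.88 log2 RPKM in the 3 parental samples, 2.16, 2.33 and 2.13 in Ov4Cis, 2.70, 1.57 and 1.36 in Ov4Carbo, 1.63, 1.85 and 1.73 in clone Ov4Carbo4 and 3.40, 3.24 and 3.03 in clone Ov4Carbo7. The 3 Ov4Carbo7 values lay above all 12 others. Against the parental line the NLRC5 log2 fold change was 1.27 (limma, SE 0.27, adjusted p = 0.00231). Against its parent line Ov4Carbo it was 1.35 (adjusted p = 0.00218), and 1.76 (adjusted p = 1.02e-05) without Ov4Carbo replicate 1. Against Ov4Carbo4, a comparison within a title series, it was 1.49 (adjusted p = 0.000582). Ov4Cis differed from Ov4Carbo7 by -1.02 (adjusted p = 0.00989). The call against the parental line held in each of 15 fits that left out a sample, with a log2 fold change of 1.17 to 1.41. A term for the title series, which is estimated from Ov4Carbo replicate 1 against replicates 2 and 3 alone, brought that difference to 0.04 (adjusted p = 0.921), the one from Ov4Carbo to 0.53 (adjusted p = 0.0857) and that of Ov4Cis from Ov4Carbo7 to 0.21. Among the other 4 lines the NLRC5 means ran from 1.74 to 2.21, and no neighbours in that order differed past an adjusted p of 0.05.

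**Figure D1:**
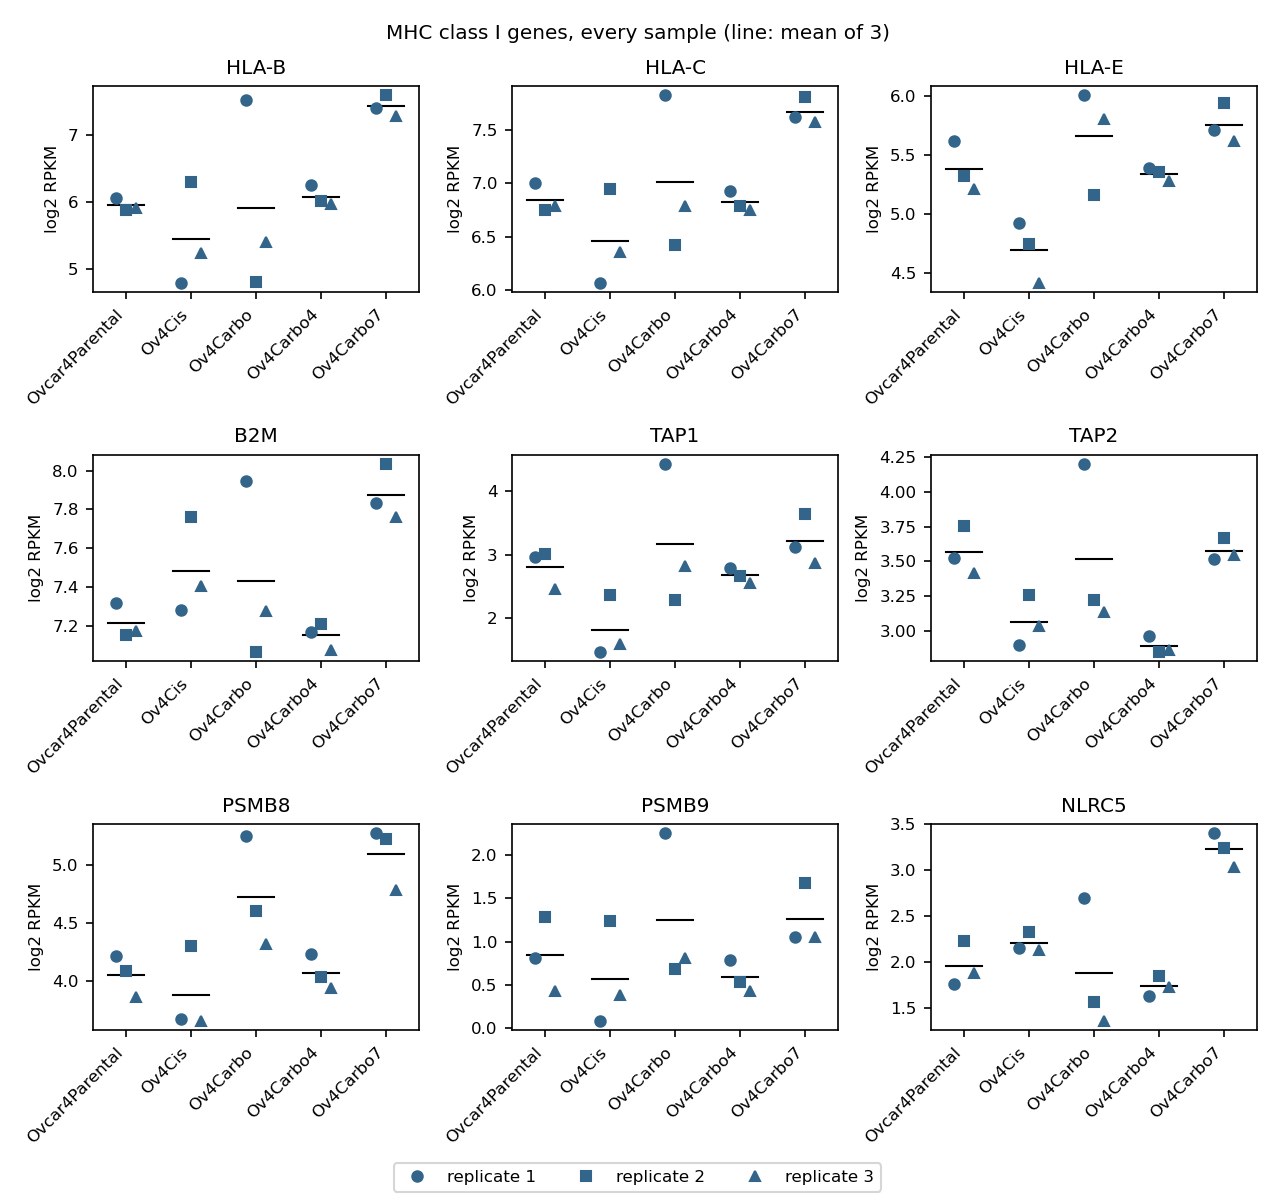
Level of each of the 9 genes (log2 RPKM, y axis) in the 5 lines (x axis). Circles, squares and triangles are replicates 1, 2 and 3 and the line is their mean; for NLRC5 the 3 Ov4Carbo7 values (3.03 to 3.40) lie above all others, and for HLA-B, Ov4Carbo replicate 1 (7.51) lies far from its other replicates (4.81 and 5.40).

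The classical heavy chains came next. HLA-B, which presents peptides to CD8+ T cells, was measured at 6.05, 5.88 and 5.91 log2 RPKM in the parental samples, 4.80, 6.30 and 5.24 in Ov4Cis, 7.51, 4.81 and 5.40 in Ov4Carbo, 6.25, 6.01 and 5.97 in clone Ov4Carbo4 and 7.40, 7.59 and 7.28 in clone Ov4Carbo7. Ov4Carbo7 lay above every sample of the parental line, Ov4Cis and Ov4Carbo4, while Ov4Carbo replicate 1 lay within its range. The HLA-B log2 fold change of Ov4Carbo7 was 1.48 (limma, SE 0.54, adjusted p = 0.0442) against the parental line, 1.52 (adjusted p = 0.0446) against Ov4Carbo and 1.35 (adjusted p = 0.0541, not called) against Ov4Carbo4. Without Ov4Carbo replicate 1 the adjusted p against the parental line was 0.00192, and the difference from Ov4Carbo was 2.32 (adjusted p = 0.000275). The call against the parental line was lost when any replicate of Ov4Carbo7, of the parental line or of Ov4Carbo4, or Ov4Cis replicate 3, was left out, with an adjusted p of up to 0.106. With the replicate number as a block the calls against the parental line (adjusted p = 0.0605) and against Ov4Carbo (adjusted p = 0.0619) were both lost. With the title series term the difference from the parental line turned to -0.94 (adjusted p = 0.222). The call against Ov4Carbo held in 3 of the 15 fits that left out a sample, and the series term brought the difference from Ov4Carbo to -0.09. The difference of Ov4Cis from Ov4Carbo7 was -1.98 (adjusted p = 0.0118), with all Ov4Cis values lower, and 0.43 (adjusted p = 0.581) with the series term.

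HLA-C, the other classical heavy chain of the 9, varied less. Its values were 7.0, 6.75 and 6.78 in the parental samples, 6.07, 6.95 and 6.35 in Ov4Cis, 7.82, 6.42 and 6.79 in Ov4Carbo, 6.93, 6.78 and 6.75 in clone Ov4Carbo4 and 7.62, 7.80 and 7.57 in clone Ov4Carbo7. The Ov4Carbo7 samples were above all parental, Ov4Cis and Ov4Carbo4 samples, by 0.82 (SE 0.30, adjusted p = 0.0410) over the parental mean, under the fold limit. The difference of Ov4Cis from Ov4Carbo7 was -1.21 (adjusted p = 0.00640), and 0.0096 with the series term. HLA-B and HLA-C followed each other closely, with r = 0.97 over the 15 samples, each the other's nearest gene in the table. The samples share libraries and lines, so r is a description. In the annotated transcripts, 2.72% of the 50-base words of HLA-B and 5.38% of those of HLA-C also occur in another of 17 HLA class I genes and pseudogenes compared, and reads from such stretches may have been counted for either gene or not at all. How the authors' counting treated the alleles of this line was not tested.

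HLA-E, a non-classical heavy chain that shows signal-peptide fragments to the CD94/NKG2A receptor of natural killer cells, was lowest in Ov4Cis. It was measured at 5.62, 5.32 and 5.22 in the parental samples, 4.92, 4.75 and 4.42 in Ov4Cis, 6.0, 5.16 and 5.80 in Ov4Carbo, 5.39, 5.35 and 5.28 in clone Ov4Carbo4 and 5.71, 5.94 and 5.62 in clone Ov4Carbo7. Every Ov4Cis value was below every value of the other 4 lines. The HLA-E difference of Ov4Cis was -0.69 (limma, SE 0.20, adjusted p = 0.0173) against the parental line, under the fold limit, -0.64 (adjusted p = 0.0206) against Ov4Carbo4 and -1.06 (adjusted p = 0.00121) against Ov4Carbo7. With the series term the last was -0.54 (adjusted p = 0.242). Ov4Carbo7 exceeded the parental line by 0.37 (95% interval -0.06 to 0.81, adjusted p = 0.157), which is not shown to differ.

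B2M, the light chain shared by all class I molecules, had the highest level of the 9. Its values were 7.32, 7.15 and 7.17 in the parental samples, 7.28, 7.76 and 7.41 in Ov4Cis, 7.95, 7.07 and 7.27 in Ov4Carbo, 7.17, 7.21 and 7.08 in clone Ov4Carbo4 and 7.83, 8.03 and 7.76 in clone Ov4Carbo7. In Ov4Carbo7 B2M exceeded the parental mean by 0.66 (adjusted p = 0.0153) and the Ov4Carbo4 mean by 0.72 (adjusted p = 0.00749), both under the fold limit. B2M in Ov4Cis had a mean 0.27 above the parental one (adjusted p = 0.309), whereas the HLA-B mean lay below it. HLA-B minus B2M within a sample was -1.27 ± 0.01 (SD, n = 3) in the parental line, -2.04 ± 0.52 in Ov4Cis, -1.52 ± 0.96 in Ov4Carbo, -1.08 ± 0.14 in clone Ov4Carbo4 and -0.45 ± 0.03 in clone Ov4Carbo7. The heavy chain was thus nearest to the light chain in Ov4Carbo7, and Ov4Carbo replicate 1 (-0.43) lay within the range of that line. These differences of levels are a description, with no test, and whether reads of both genes were counted equally well is unknown.

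Neither subunit of the peptide transporter was called higher in Ov4Carbo7 than in the parental line. TAP1 was measured at 2.96, 3.01 and 2.45 in the parental samples, 1.47, 2.36 and 1.58 in Ov4Cis, 4.43, 2.28 and 2.81 in Ov4Carbo, 2.79, 2.66 and 2.56 in clone Ov4Carbo4 and 3.13, 3.65 and 2.86 in clone Ov4Carbo7. All Ov4Cis values of TAP1 lay below all parental values, but the log2 fold change of -1.0 (SE 0.44) did not pass the test (adjusted p = 0.0957). It was called, with adjusted p = 0.0106, without Ov4Carbo replicate 1. TAP1 was called lower in Ov4Cis than in Ov4Carbo, by -1.37 (adjusted p = 0.0299), but the difference was -0.75 (adjusted p = 0.0635) without Ov4Carbo replicate 1, and the call was also lost without Ov4Cis replicate 1 or 3. It was also called lower than in Ov4Carbo7, by -1.41 (adjusted p = 0.0228), a call lost without Ov4Carbo7 replicate 2 or without Ov4Cis replicate 1 or 3 (adjusted p up to 0.0872). With the series term the difference of Ov4Cis from Ov4Carbo7 turned to 0.47 (adjusted p = 0.494). TAP1 in Ov4Carbo7 exceeded the parental mean by 0.41 (95% interval -0.55 to 1.36), and with the series term it was called lower, at -1.47 (adjusted p = 0.0439).

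TAP2, the partner subunit of the transporter, was lowest in Ov4Carbo4. Its values were 3.53, 3.75 and 3.41 in the parental samples, 2.90, 3.26 and 3.04 in Ov4Cis, 4.20, 3.22 and 3.14 in Ov4Carbo, 2.96, 2.85 and 2.86 in clone Ov4Carbo4 and 3.52, 3.67 and 3.54 in clone Ov4Carbo7. The TAP2 log2 fold change of Ov4Carbo4 against the parental line was -0.67 (SE 0.22, adjusted p = 0.0300), under the fold limit, and its 3 values lay below the 3 parental ones. In Ov4Carbo7 the TAP2 difference from the parental line was 0.01 (95% interval -0.47 to 0.50), and with the series term it was called lower, at -1.01 (adjusted p = 0.00534). TAP1 minus TAP2 was lowest in Ov4Cis, at -1.26 ± 0.31 (SD, n = 3), and -0.76 ± 0.20 in the parental line.

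The 2 immunoproteasome subunits differed in level and in pattern. PSMB8 was measured at 4.22, 4.09 and 3.86 in the parental samples, 3.68, 4.31 and 3.66 in Ov4Cis, 5.25, 4.61 and 4.32 in Ov4Carbo, 4.24, 4.04 and 3.94 in clone Ov4Carbo4 and 5.27, 5.22 and 4.79 in clone Ov4Carbo7. All Ov4Carbo7 values lay above all parental, Ov4Cis and Ov4Carbo4 values. PSMB8 in Ov4Carbo7 exceeded the parental line by 1.04 (SE 0.24, adjusted p = 0.00391) and Ov4Carbo4 by 1.02 (adjusted p = 0.00334). Both differences stood close to the fold limit of 1. The first fell under it, to 0.94 to 0.97, without Ov4Carbo7 replicate 1 or 2 or parental replicate 3, at adjusted p of at most 0.0187. With the series term the first was 0.26 (adjusted p = 0.620), and the call was lost. PSMB8 in Ov4Carbo was 0.67 above the parental line (adjusted p = 0.0471), and 0.41 (adjusted p = 0.151) without replicate 1. PSMB9 had the lowest level of the 9, with values of 0.81, 1.28 and 0.43 in the parental samples, 0.09, 1.23 and 0.38 in Ov4Cis, 2.25, 0.68 and 0.81 in Ov4Carbo, 0.79, 0.54 and 0.43 in clone Ov4Carbo4 and 1.05, 1.68 and 1.05 in clone Ov4Carbo7. Its lines overlapped, and no difference was detected among the 5 lines (moderated F-test, adjusted p = 0.305).

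Values of the replaced subunits are set beside these, though levels of different genes may not be directly comparable. Other subunits of the proteasome core, PSMA2 and PSMA4, had parental means of 0.95 and 6.06, and the cause of such gaps was not tested. PSMB5, the standard counterpart of PSMB8, had means of 4.53 to 5.01 and was not called in any contrast. PSMB8 minus PSMB5 was -0.56 ± 0.20 (SD, n = 3) in the parental line, -1.13 ± 0.45 in Ov4Cis, -0.06 ± 0.36 in Ov4Carbo, -0.46 ± 0.12 in clone Ov4Carbo4 and 0.18 ± 0.26 in clone Ov4Carbo7. PSMB8 was thus near its counterpart, above it in 2 of 3 Ov4Carbo7 samples and in Ov4Carbo replicate 1. PSMB9, by contrast, stayed far below PSMB6, with mean differences of -5.84 to -5.30. PSMB10, the third interferon-regulated subunit, lay -4.65 to -3.49 from PSMB7, and its difference between Ov4Carbo7 and the parental line was -0.34 (adjusted p = 0.189).

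**Figure D2:**
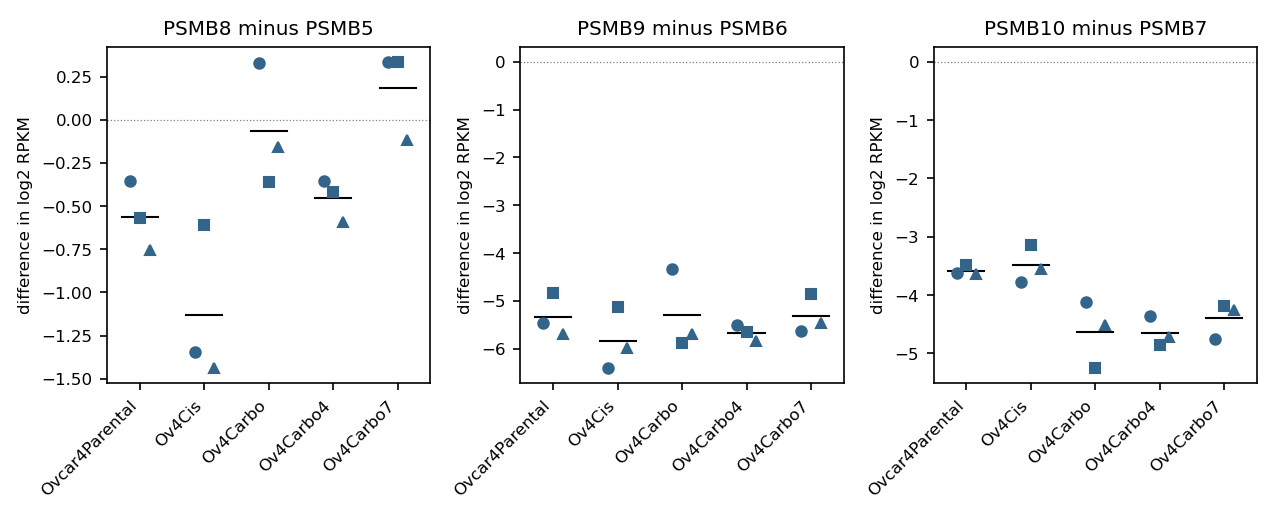
Inducible subunit minus its standard counterpart within each sample (difference in log2 RPKM, y axis; 5 lines, x axis). Circles, squares and triangles are replicates 1, 2 and 3, the line is the mean and 0 means equal RPKM values. PSMB8 reaches the value of its counterpart in Ov4Carbo7 (mean 0.18), while PSMB9 and PSMB10 lie below theirs in all samples.

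Counts over the 9 genes are set here beside those over all genes. Against the parental line, Ov4Cis had 0 of 9 called (15.9% of all genes; TAP1 alone without Ov4Carbo replicate 1, which shares the estimate of spread), Ov4Carbo 0 of 9 (12.7%) and Ov4Carbo4 0 of 9 (15.1%). HLA-E in Ov4Cis, PSMB8 in Ov4Carbo and TAP2 in Ov4Carbo4 had an adjusted p under 0.05 below the fold limit. Ov4Carbo7 had 3 of 9 called against the parental line, all higher (17.0% of all genes called, 9.26% called higher), with a median log2 fold change of 0.66 over the 9 and 0.02 over all genes. For 5 of the 9, all Ov4Carbo7 values lay above all parental values (29.5% of all genes). The count of calls was 1 to 3 over the fits that left out a sample, and 1 without Ov4Carbo7 replicate 1 or 2 or parental replicate 3. With the title series term 2 of 9 were called, both lower (TAP1 and TAP2, with 16.6% of all genes called). With it Ov4Carbo4 had 6 of 9 called against the parental line, all lower (17.9% of all genes called).

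Between the derived lines, Ov4Carbo7 differed from Ov4Carbo in 2 of 9, both higher (13.3% called, 7.72% called higher), and in 3 without Ov4Carbo replicate 1. With the series term 1 was called, TAP1, which was lower (9.4% of all genes called). The other clone, Ov4Carbo4, differed from Ov4Carbo in 0 of 9 (14.2%), and in 5 of 9, all lower, with the series term (13.7%). Ov4Carbo7 exceeded Ov4Carbo4 in 2 of 9 (20.9% called, 11.1% called higher), or 1 without Ov4Carbo7 replicate 1 or 2 or Ov4Carbo4 replicate 3, and 3 without Ov4Carbo replicate 1. For 9 of 9 genes all its values lay above all those of Ov4Carbo4 (31.7% of all genes). The median log2 fold change of that pair was 0.72 over the 9 and -0.05 over all genes. Ov4Cis was called lower than Ov4Carbo7 for 6 of 9 (14.7% called, 7.20% called lower), with all values below for 7 of 9 (27.5%). These lines lie wholly in different title series, and with the series term the count was 0 (15.9%), with HLA-B, HLA-C, TAP1 and NLRC5 turned in sign. It was 3 without Ov4Cis replicate 3. Ov4Cis was called lower than Ov4Carbo for 1 of 9 (13.8% called, 5.90% called lower), or 0 without Ov4Carbo replicate 1. Against Ov4Carbo4 the count was 0 of 9 (16.8%), where the series term gave 4, all higher (21.1%). Contrasts that share a line share its samples, so their counts are not independent. Each clone is 1 derivative, and a difference between Ov4Carbo7 and Ov4Carbo4 cannot be told apart from a difference between any 2 clones.

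**Figure D3:**
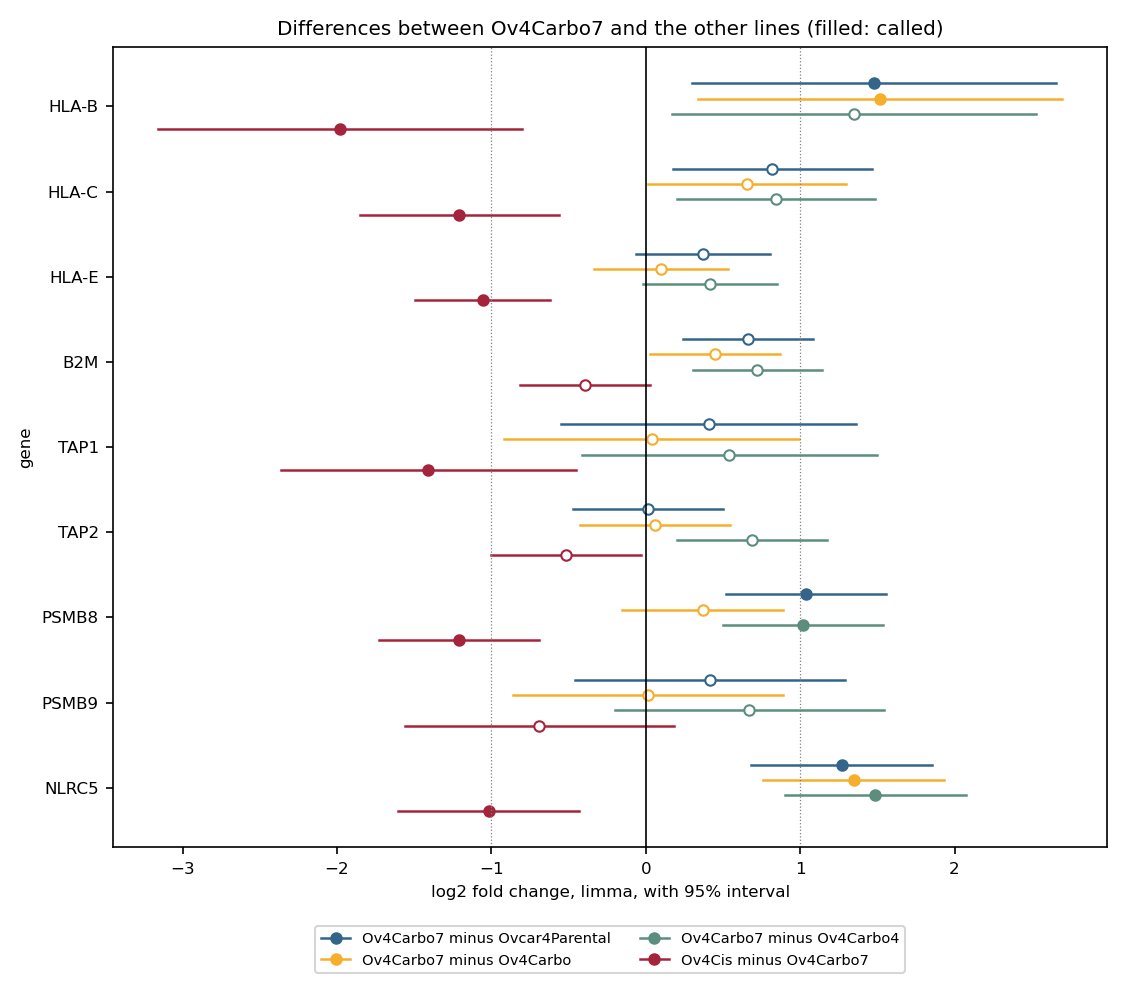
Log2 fold change of each gene (x axis, limma, with 95% interval) between Ov4Carbo7 and each other line. Filled points were called and dotted lines mark a fold change of 1 in either direction; for NLRC5 all 4 contrasts were called, and for TAP2 and PSMB9 none.

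Any difference among the 5 lines was found by the moderated F-test for 7 of 9 genes, against 76.9% of all genes. PSMB9 (adjusted p = 0.305) and TAP1 (adjusted p = 0.0574) did not pass. In the order of line means, 3 of 36 neighbouring steps had an adjusted p under 0.05. These were NLRC5 between Ov4Carbo7 and Ov4Cis, HLA-E between Ov4Carbo4 and Ov4Cis, and PSMB8 between Ov4Carbo and Ov4Carbo4 (a difference of 0.65, adjusted p = 0.0438, with 0.39 and adjusted p = 0.157 without Ov4Carbo replicate 1).

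Replicate 1 of Ov4Carbo was the highest of its line for 9 of 9 genes, against 33.7% of all genes. It exceeded both other replicates by at least 1 log2 unit for 5 of 9, against 2.42% of all genes. The gap to the mean of replicates 2 and 3 was 2.41 for HLA-B, 1.88 for TAP1, 1.50 for PSMB9, 1.23 for NLRC5, 1.22 for HLA-C and 1.02 for TAP2, and smallest for HLA-E, at 0.52. This sample had the highest value of all 15 for HLA-C, HLA-E, TAP1, TAP2 and PSMB9. It lay below the Ov4Carbo7 mean for NLRC5 (2.70 against 3.22) and above it for TAP1 (4.43 against 3.21). Both transporter genes were among those high in this sample, whereas the TAP2 mean of Ov4Carbo7 was 0.01 above the parental one. A second within-line gap was in Ov4Cis, where replicate 2 was the highest of 3 for 8 of 9 genes (33.7% of all genes). One replicate was also the highest for 7 of 9 in clone Ov4Carbo4 (replicate 1, 35.9% of all genes) and in clone Ov4Carbo7 (replicate 2, 26.2%). The median SD of the 9 genes was 0.72 in Ov4Carbo and 0.37 in Ov4Cis, against 0.18 in the parental line, 0.11 in clone Ov4Carbo4 and 0.16 in clone Ov4Carbo7. Over the 12037 genes whose mean was log2 RPKM 1 or more, the median SD was 0.239, 0.117, 0.135, 0.0951 and 0.131 in the same order of lines. Replicates 2 and 3 of Ov4Carbo share a title series with the parental line. Without replicate 1, 0 of 9 genes were called in Ov4Carbo against the parental line and the median log2 fold change was -0.24.

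**Figure D4:**
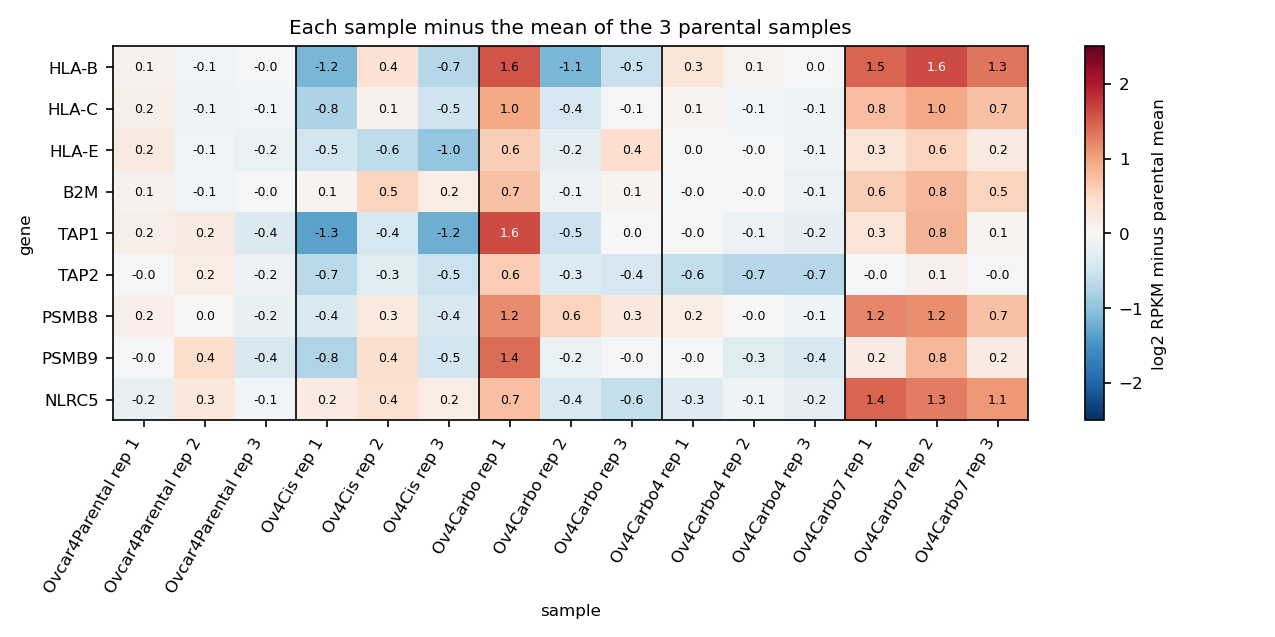
Each sample (x axis) minus the mean of the 3 parental samples, in log2 RPKM, for the 9 genes (y axis), with red above and blue below. Ov4Carbo replicate 1 lies above the parental mean for all 9 genes, and the 3 Ov4Carbo7 samples lie above all parental samples for HLA-B, HLA-C, B2M, PSMB8 and NLRC5.

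The genes whose pattern over the 15 samples was most like the mean profile of the 9, among 2174 genes compared, included several interferon-regulated ones. RIGI, a sensor of viral RNA, had r = 0.91, IFIH1, another RNA sensor, r = 0.88 and IFIT3 r = 0.86. Others were DDIT4L, MX1, FTH1P5, EEIG1, IRF7 and IFIT2, with r of 0.82 to 0.84. RIGI had means of 2.81 in the parental line, 1.91 in Ov4Cis, 2.76 in Ov4Carbo, 1.51 in clone Ov4Carbo4 and 3.91 in clone Ov4Carbo7. IFIH1 had means of 0.14, 0.11, 2.17, 0.91 and 3.23 in the same order. Among the genes nearest to a single member were CTSD for B2M (r = 0.96), SELPLG for PSMB8 (0.95), DOK4 for HLA-E (0.92), IFIT5 for TAP1 (0.91), RIGI for TAP2 (0.89) and TAP1 for PSMB9 (0.88). Among the 9 themselves, NLRC5 and HLA-E were least alike (r = 0.33). These r values describe 15 samples of 5 lines with shared libraries.

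Of 8 other class I genes listed, 7 were in the table. Of these, 5 were called higher and 1 lower in Ov4Carbo7 against the parental line (17.0% of all genes called, 9.26% called higher). Those called higher included HLA-F, a non-classical heavy chain (limma log2 fold change 1.94), HLA-H, a pseudogene (1.30), HFE, a class I-like protein of iron control (1.16), and MR1, which presents vitamin metabolites (1.06). CD1D, named after its values were seen, was the 1 called lower, at -1.23. HLA-F was also called higher in Ov4Carbo (1.73) and Ov4Carbo4 (1.70), and MR1 in Ov4Cis (1.23). In these 3 lines the counts were 1 higher and 0 lower in Ov4Cis (15.9% of all genes called) and in Ov4Carbo (12.7%), and 1 higher and 1 lower in Ov4Carbo4 (15.1%). Ov4Carbo7 had 0 called against Ov4Carbo (13.3%) or Ov4Carbo4 (20.9%). Ov4Carbo4 had 1 lower against Ov4Carbo (14.2%). Ov4Cis had 1 lower against Ov4Carbo (13.8%), 1 higher and 1 lower against Ov4Carbo4 (16.8%), and 1 higher and 3 lower against Ov4Carbo7 (14.7%). Without Ov4Carbo replicate 1, Ov4Carbo7 had 1 higher against Ov4Carbo (16.7%), and Ov4Cis had 1 higher and 0 lower against it (16.7%).

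Of 17 genes of peptide trimming, chaperoning and loading, few were called against the parental line. They were 1 lower in Ov4Cis (15.9% of all genes called), 1 lower in Ov4Carbo (12.7%), 1 lower in clone Ov4Carbo4 (15.1%) and 0 in clone Ov4Carbo7 (17.0%). TPP2, a cytosolic peptidase, fell by 1.46 in Ov4Cis (limma adjusted p = 2.85e-07), from 4.06, 4.21 and 4.10 in the parental samples to 2.64, 2.68 and 2.67. LNPEP, an endosomal aminopeptidase, was lower in Ov4Carbo by -1.32 (adjusted p = 0.00372). Without Ov4Carbo replicate 1 the Ov4Carbo count was 4 lower (15.2% of all genes called). TAPBP, the tapasin chaperone that holds class I at the transporter, was -0.74 from the parental line in Ov4Cis (adjusted p = 0.00437), under the fold limit, and -0.13 in Ov4Carbo7 (adjusted p = 0.577). ERAP1, which trims peptides in the endoplasmic reticulum, was -0.89 in Ov4Carbo7 (adjusted p = 0.0493) and -0.09 in Ov4Cis (adjusted p = 0.867). Between derived lines this list had 1 higher and 1 lower in Ov4Carbo4 against Ov4Carbo (14.2%), 0 in Ov4Carbo7 against Ov4Carbo (13.3%) and 1 higher in Ov4Carbo7 against Ov4Carbo4 (20.9%). That gene was TAPBPL, a tapasin relative named here after its values were seen, which differed by 1.83 between the clones and by -1.67 between Ov4Carbo4 and the parental line. Ov4Cis had 1 lower against Ov4Carbo (13.8%), 1 higher and 1 lower against Ov4Carbo4 (16.8%) and 0 against Ov4Carbo7 (14.7%). Without Ov4Carbo replicate 1 the loading and trimming genes called against Ov4Carbo were 2 higher in clone Ov4Carbo4 (16.2%), 2 higher in clone Ov4Carbo7 (16.7%), and 3 higher and 1 lower in Ov4Cis (16.7%). Of 20 other proteasome genes listed, 19 were in the table. Over all genes, 12.7% to 20.9% were called per contrast. Of the 19, 0 were called in 9 of the 10 contrasts and 1 was lower in Ov4Cis against Ov4Carbo. This was POMP, a proteasome assembly factor named after its values were seen, at -1.07. PSMB7 was 0.76 higher in Ov4Carbo than in the parental line (adjusted p = 0.00359), and PSMB6 0.40 higher in Ov4Carbo7 (adjusted p = 0.00192), both under the fold limit.

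Of 30 regulators of these genes listed, 29 were in the table. Of these, 2 were called higher and 0 lower in Ov4Carbo7 against the parental line (17.0% of all genes called). Over all genes, 9.26% were called higher in that contrast. IRF1, a factor that binds interferon-response elements, differed by 0.01 between Ov4Carbo7 and the parental line (adjusted p = 0.979) and by -0.38 in Ov4Cis (adjusted p = 0.182).

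The RFX complex recruits NLRC5 to class I promoters. Its subunit RFXAP fell in Ov4Cis by 1.51 (limma adjusted p = 7.91e-06). The parental samples lay at 1.62, 1.26 and 1.48, and Ov4Cis had a mean of -0.06 and a highest value of 0.12. RFXAP also lay below every parental value in Ov4Carbo7, the line with the highest class I means. Its mean there was 0.79 and its highest value 0.905. The RFXAP means of Ov4Carbo and Ov4Carbo4 were 1.19 and 1.54. Whether RFXAP bears on the class I levels was not tested. RFX5 was 0.33 above the parental line in Ov4Cis (adjusted p = 0.0255) and 0.34 above it in Ov4Carbo7 (adjusted p = 0.0194), both under the fold limit. RELB and NFKB2, subunits of the non-canonical NF-kappaB factor, were called lower in Ov4Carbo4, by -1.11 and -1.08, and RELB in Ov4Cis, by -1.32. The regulators called, of 29, were 1 higher and 2 lower in Ov4Cis (15.9% of all genes called), 0 in Ov4Carbo (12.7%) and 3 lower in Ov4Carbo4 (15.1%), each against the parental line. Ov4Carbo7 had 4 higher and 1 lower against Ov4Carbo4 (20.9% of all genes called, 11.1% called higher). Those higher included SOCS1 (1.46), JAK1 (1.23) and NFKB2 (1.22), and EZH2 was lower (-1.30), where SOCS1, JAK1 and EZH2 were named after their values were seen. JAK1, a kinase of interferon receptors, was the third gene lower in Ov4Carbo4 than in the parental line (-1.04), and SOCS1, an inhibitor of such kinases, was among those higher in Ov4Carbo7 (1.06). Ov4Carbo7 had 0 against Ov4Carbo (13.3%), and Ov4Carbo4 had 1 lower against Ov4Carbo (14.2%). Ov4Cis had 3 lower against Ov4Carbo (13.8%), 2 higher and 2 lower against Ov4Carbo4 (16.8%), and 3 lower against Ov4Carbo7 (14.7%). Without Ov4Carbo replicate 1 the regulators called against Ov4Carbo were 3 higher in clone Ov4Carbo7 (16.7%), 2 lower in clone Ov4Carbo4 (16.2%), and 3 higher and 4 lower in Ov4Cis (16.7%). CIITA was not analysed here.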

How the data were processed

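RNA from 15 cultured samples was sequenced as polyA libraries, per the labels' protocols. The authors deposited log2 RPKM values of 16604 genes after conditional quantile normalization, per the file headers and the table's name. The submitters' processing notes name BWA 0.7.15-r1140, HTSeq and the hg19 (GRCh37) build. Read totals per sample were not used here, so precision rests on the spread between replicates, and normalization to a common distribution hides changes in total RNA. limma 3.58.1 in R 4.3.3 fitted a mean for each of 5 lines to the deposited log2 data, all genes included (two-sided tests, 10 pairwise contrasts, Benjamini-Hochberg over all genes within a contrast). The fit was tested on simulated data. Calls needed an adjusted p under 0.05 with a log2 fold change of 1 or more in size. Sequence steps and figures used Python 3.11.15, Biopython 1.88 and matplotlib 3.10.9. Motifs were searched in RefSeq promoters (GRCh38.p14), and shared HLA words in GENCODE transcripts.

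The members and lists were chosen with earlier results of these data known. All members are named. From each other list, genes are named that were called against the parental line with a higher line mean of at least log2 RPKM 1, at most 4 by fold change, and TAPBP, PSMB10, IRF1, RFX5, CIITA, ERAP1, PSMB5, PSMB6 and PSMB7 whatever their values. Some genes that enter the counts are not reported here by name. Genes of like pattern were the 10 with the highest r to the mean centred profile, among genes of mean log2 RPKM 1 or more and an SD of line means of 0.5 or more. Alternatives were an adjusted p alone, a variance trend, log2(RPKM + 1), a filter on the mean, a title series term, only the lines compared, a replicate block, centring on the median and leaving out each sample. Counts of the other lists without Ov4Carbo replicate 1 were added after seeing the data.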

Additional observations from a re-analysis of the deposited data

How the results depend on the processing

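With depth unknown, the spread between 3 replicates sets the precision. With an adjusted p alone, the number of the 9 genes called against the parental line was 1 in Ov4Cis (36.2% of all genes called) and 1 in Ov4Carbo (34%). It was 1 in clone Ov4Carbo4 (39.7%) and 5 in clone Ov4Carbo7 (42.6%). Between derived lines it was 2 in Ov4Carbo4 against Ov4Carbo (42.2%) and 5 in Ov4Carbo7 against Ov4Carbo4 (51.1%). For Ov4Cis it was 3 against Ov4Carbo (34.2%) and 1 against Ov4Carbo4 (44%). With only the 2 groups compared, the number was 1 in Ov4Cis against the parental line (15.5% of all genes called). It was 1 in Ov4Carbo7 against Ov4Carbo (11.5%) and 0 in Ov4Cis against Ov4Carbo (11.5%). The variance trend, the filter on the mean (which leaves out PSMB9), log2(RPKM + 1) and centring moved none of these counts by over 1.5 times.

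The term for the title series rests on Ov4Carbo replicate 1. With it the counts against the parental line were 1 lower in Ov4Cis (16.5% of all genes called), 6 lower in Ov4Carbo4 (17.9%) and 2 lower in Ov4Carbo7 (16.6%). In each of these, 0 were higher. Against Ov4Carbo they were 5 lower in clone Ov4Carbo4 (13.7%) and 1 lower in clone Ov4Carbo7 (9.4%). For Ov4Cis they were 0 against Ov4Carbo (16.7%), 4 higher against Ov4Carbo4 (21.1%) and 0 against Ov4Carbo7 (15.9%). Log2 fold changes that turned were, against the parental line, HLA-B at -2.29 in clone Ov4Carbo4 and HLA-B at -0.94, TAP1 at -1.47 and TAP2 at -1.01 in clone Ov4Carbo7. Against Ov4Carbo they were HLA-B at -1.44 in clone Ov4Carbo4 and HLA-B at -0.0912 and TAP1 at -1.22 in clone Ov4Carbo7. In Ov4Cis they were HLA-B at 1.78 against Ov4Carbo4, and HLA-B at 0.43, HLA-C at 0.0096, TAP1 at 0.47 and NLRC5 at 0.21 against Ov4Carbo7. The cause was not tested. The term cannot alter Ov4Carbo7 against Ov4Carbo4, where NLRC5 stayed at 1.49.

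Leaving out each sample gave 0 to 1 in Ov4Cis, 0 in Ov4Carbo, 0 in clone Ov4Carbo4 and 1 to 3 in clone Ov4Carbo7 against the parental line. It gave 0 in Ov4Carbo4 against Ov4Carbo, 1 to 3 in Ov4Carbo7 against Ov4Carbo and against Ov4Carbo4, and 0 to 2, 0 and 3 to 6 in Ov4Cis against Ov4Carbo, Ov4Carbo4 and Ov4Carbo7.

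Same-numbered replicates correlated above 0.1 in 11 of 30 pairs (r of -0.39 to 0.44), and 5 of 15 samples correlated best with their own number, so the numbers are not taken to pair samples. A replicate block gave 2 genes called in Ov4Carbo7 against the parental line (HLA-B at 1.48, adjusted p = 0.0605) and 1 against Ov4Carbo (HLA-B at 1.52, adjusted p = 0.0619), and left HLA-B short of the threshold in the F-test (adjusted p = 0.0638). The block changed no other call among the 9. Over all genes, calls per contrast ranged from 2106 to 3478. They ranged from 5638 to 8484 with an adjusted p alone, from 790 to 1746 with log2(RPKM + 1) and from 730 to 1645 with the filter, under which fewer genes were tested.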

Other observations

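MHC class II presentation shows peptides from outside the cell to CD4+ T cells. Some of its genes were called higher against the parental line in each of the 4 derived lines. Of 14 such genes listed, only 7 were in the table, so these counts do not cover the pathway. Of the 7, 3 were higher and 1 lower in Ov4Cis, 6 higher in Ov4Carbo (4 without its replicate 1), 3 higher in clone Ov4Carbo4 and 5 higher in clone Ov4Carbo7. Over all genes, 15.9%, 12.7%, 15.1% and 17.0% were called in these contrasts, in the same order. HLA-DPA1, a gene of the 7 named after its values were seen, lay below log2 RPKM 0 in every sample. The contrasts of both clones with the parental line cross the title series, and values with the series term are not given for this list. HLA-DPB1, a class II chain, was measured at -1.74, -1.54 and -0.96 log2 RPKM in the parental samples, 1.70, 1.87 and 1.89 in Ov4Cis, and 1.37, 1.37 and 1.36 in Ov4Carbo7. Its log2 fold change was 3.23 (limma adjusted p = 1.79e-07) in Ov4Cis and 2.78 (adjusted p = 9.81e-07) in Ov4Carbo7. CTSS, a protease that trims the class II chaperone, rose by 2.37 in Ov4Cis, 2.69 in Ov4Carbo and 1.86 in Ov4Carbo7. HLA-DMB, a peptide exchange factor, rose by 2.50 in Ov4Carbo7, over parental values that spread widely, at 1.85, 0.19 and -0.03. HLA-DMA, its partner, rose by 1.44 in Ov4Carbo7. CD74, the class II chaperone itself, named after its values were seen, was -1.37 in Ov4Cis and 1.22 in Ov4Carbo. Ov4Cis, lowest in 6 of the 9 class I genes, had the highest HLA-DPB1 mean of the 5 lines (1.82). Between derived lines, the class II genes called against Ov4Carbo were 1 lower in clone Ov4Carbo4 (14.2% of all genes called) and 2 higher and 1 lower in clone Ov4Carbo7 (13.3%). Ov4Carbo7 had 3 higher against Ov4Carbo4 (20.9%). Ov4Cis had 2 higher and 2 lower against Ov4Carbo (13.8%), 3 higher and 2 lower against Ov4Carbo4 (16.8%), and 2 lower against Ov4Carbo7 (14.7%).

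Of 15 ligands of natural killer cell and checkpoint receptors listed, 11 were in the table. Of these, 3 were called higher and 1 lower in Ov4Cis, 1 higher and 1 lower in Ov4Carbo, 1 higher in clone Ov4Carbo4 and 3 higher in clone Ov4Carbo7, against the parental line. Over all genes, 15.9%, 12.7%, 15.1% and 17.0% were called in these contrasts, in the same order. MICB, a stress ligand of the NKG2D receptor, fell by 1.26 in Ov4Cis (limma adjusted p = 1.32e-06), from 3.35, 3.40 and 3.22 to 2.09, 2.08 and 2.01. CD274, which encodes PD-L1 and was named after its values were seen, was measured at -0.44, -0.25 and -1.45 in the parental samples and 0.98, 1.11 and 0.66 in Ov4Carbo7, a difference of 1.63 (adjusted p = 0.00245). Between the clones the CD274 difference was 2.10 (adjusted p = 0.000311). Between derived lines the ligands called against Ov4Carbo were 1 higher in clone Ov4Carbo4 (14.2% of all genes called) and 4 higher in clone Ov4Carbo7 (13.3%). Ov4Carbo7 had 4 higher against Ov4Carbo4 (20.9%). Ov4Cis had 4 higher and 1 lower against Ov4Carbo (13.8%) and against Ov4Carbo4 (16.8%), and 3 lower against Ov4Carbo7 (14.7%). Without Ov4Carbo replicate 1 the ligands called were 0 higher and 1 lower in Ov4Carbo against the parental line (15.2%). Against Ov4Carbo they were then 2 higher in clone Ov4Carbo4 (16.2%) and 5 higher in clone Ov4Carbo7 (16.7%).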
